A study of Homo sapiens with 4 samples.

Results

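The enzymes of glycolysis, the pentose phosphate pathway and the tricarboxylic acid (TCA) cycle were examined in MDA-MB-231 cells, a human line derived from a triple-negative breast cancer. The set of 47 genes was chosen by name and pathway, with earlier results of these data known. A gene entered through its rows of the molecule type protein_coding, so that all 47 had such a row follows from the choice. They had 125 rows among the 26348 protein-coding rows and 12120 genes of the deposited table. Cells were exposed to DMSO, the solvent, or to 10 µM KH-3, an inhibitor of the RNA-binding protein HuR, for 24 h, with 2 mRNA libraries in each group. The table gives 1 mean normalized read count per transcript, averaged by the authors over the libraries, and this mean is the measurement used here. The paper also names a group at a lower KH-3 dose, which has no library here. The sources used here do not say over which libraries the mean was taken, so a level below cannot be assigned to DMSO or to KH-3. The authors' own comparison of KH-3 with DMSO was not used here, and no response to KH-3 is given. Without values per library there is no replicate error and the depth is unknown, and no difference between genes could be tested.

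Glycolysis splits glucose into pyruvate in the cytosol, and lactate dehydrogenase turns pyruvate into lactate. The pentose phosphate pathway branches off at glucose 6-phosphate and yields NADPH and ribose 5-phosphate. Pyruvate dehydrogenase carries pyruvate into the mitochondrial TCA cycle as acetyl-CoA. Many steps are served by several genes (isozymes), and tumour cells are known for high glycolytic flux also in the presence of oxygen.

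Long transcripts collect more reads, so genes were compared by a level per length: the mean normalized read count of each protein-coding row was divided by the transcript length in kb, and the rows of a gene were summed. This level is given as reads per kb below. The median gene of the table had 117 reads per kb. Of the 47 enzyme genes, 37 lay above it and 19 lay at or above percentile 90 of all genes. These counts describe the chosen genes, and how far the choice shaped them was not tested. The median enzyme gene had 512 reads per kb. By pathway the median was 797 for the 21 genes of glucose uptake and glycolysis, 408 for the 6 of the pentose phosphate pathway and 342 for the 20 of pyruvate dehydrogenase and the TCA cycle. In the same order the levels ran from 17.1 to 22199, from 15.1 to 1747 and from 15.5 to 1777 reads per kb, so the groups shared their low end and glycolysis reached further up. The 47 genes together held 1.5% of the summed level of all protein-coding rows, of which glycolysis alone held 1.18%.

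The cell line label was compared with its markers. All 6 mesenchymal markers had a coding row, and 5 of them lay above the median gene, VIM at 3786 reads per kb. SPARC lay below it at 84.0. Of the 7 epithelial or luminal markers, CDH1, ESR1 and PGR had no row. KRT18 reached 3542 and KRT8 331, both above the median gene, while EPCAM had 43.3 and GATA3 29.5. Among 4 markers of leukocytes and endothelium only PECAM1 had a coding row, at 4.08 reads per kb.

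Pyruvate kinase, which makes pyruvate and ATP in the last step of glycolysis, is made in forms that differ by an exon. PKM (chromosome 15 of hg38, from 72199029 to 72231819 on the minus strand) carries a pair of mutually exclusive coding exons of 167 bases each, of which exon 9 enters the form PKM1 and exon 10 the form PKM2. They are shown because they tell which form of the enzyme each of the 3 protein-coding PKM rows encodes. The bases that differ are in capitals, 62 of 167, and both are written 5′ to 3′ on the transcribed strand. Exon 9 lies at chr15:72203022-72203188 and exon 10 at chr15:72202454-72202620, in hg38.
PKM exon 9: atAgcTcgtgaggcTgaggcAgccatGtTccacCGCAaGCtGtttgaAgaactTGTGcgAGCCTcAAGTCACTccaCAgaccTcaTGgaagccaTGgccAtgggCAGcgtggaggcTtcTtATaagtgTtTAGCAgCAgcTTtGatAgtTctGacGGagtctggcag
PKM exon 10: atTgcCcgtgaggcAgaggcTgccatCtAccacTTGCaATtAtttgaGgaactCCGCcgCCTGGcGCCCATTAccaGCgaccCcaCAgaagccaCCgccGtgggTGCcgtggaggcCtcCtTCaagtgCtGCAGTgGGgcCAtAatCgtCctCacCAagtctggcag

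The PKM row with the most reads, ENST00000389093.7, had a mean normalized read count of 1489 and holds exon 10. The reference form of PKM2, ENST00000335181.9, also holds exon 10 and had 326. The third row, ENST00000565184.5, holds exon 9 and had 8.09, close to the lowest value in the table, 7.34. Per kb, 99.6% of the coding level of PKM thus came from rows with exon 10. The leading row is an unusual form: in the annotation it has 9 coding exons, against 10 in the reference form. PKM also had 6 rows of other types, mainly retained introns, which together came to 1191 reads per kb against 797 for its coding rows. These 6 rows were not sorted by exon 9 or exon 10, so the 99.6% covers coding rows only. The division of reads among these similar transcripts by eXpress enters each of the values.

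Glucose enters through SLC2A1 (GLUT1), which had a single coding row with a mean normalized read count of 1588 and 433 reads per kb. A second SLC2A1 row, of the type nonsense-mediated decay, was higher, with a mean of 2620 and 1093 reads per kb. Hexokinase traps glucose in the cell by phosphorylation. HK1 had 677 reads per kb and HK2, the form often raised in tumours, 296, so that HK1 made up 69.6% of their sum. GPI, which converts glucose 6-phosphate to fructose 6-phosphate, had 1260.3 reads per kb.

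Phosphofructokinase makes the committed step of glycolysis, and the platelet form PFKP dominated it. PFKP had 2414 reads per kb (percentile 98.2), the liver form PFKL 112 and the muscle form PFKM 17.1. PFKP thus made up 94.9% of the sum, and its level was 21.6 times that of PFKL. With rows of all molecule types PFKP held 85.7% of the sum and PFKL 11.1%. The PFKFB enzymes set the amount of fructose 2,6-bisphosphate, an activator of phosphofructokinase. They had 175 reads per kb for PFKFB2, 138 for PFKFB3 and 72.3 for PFKFB4.

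From coding rows, the 4 highest levels of the set were those of ENO1, LDHB, PGAM1 and TPI1, which act between the trioses and lactate. ENO1, the common enolase (hg38 chromosome 1, from 8861000 to 8879190 on the minus strand), had a mean normalized read count of 38370 over 3 coding rows and 22199 reads per kb, rank 12 of 12120 genes. PGAM1, which moves the phosphate group of phosphoglycerate before enolase acts, stood on 1 row of 13822 and reached 7553 reads per kb. TPI1, which interconverts the trioses, had 5079.7 reads per kb, and GAPDH, which oxidises glyceraldehyde 3-phosphate, had 2160.2. PGK1, the first ATP-forming step, had 916 reads per kb on its single coding row. The neuronal enolase ENO2 had 535, so ENO1 stood 41.5 times above it and held 97.6% of the enolase sum.

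For PGK1, the 3 rows of processed transcripts had a summed mean normalized read count of 7688, against 4477 for the coding row. They came to 12469 reads per kb, and the coding row made up 6.84% of the level of the gene over all types. They are short, between 307 and 960 bases, while the coding row is 4887 bases long. TPI1 also had a short retained-intron row of 427 bases with 6199 reads per kb, more than all of its coding rows together.

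Aldolase cleaves fructose 1,6-bisphosphate. ALDOC (hg38 chromosome 17, from 28573115 to 28576948 on the minus strand) had 899 reads per kb and ALDOA (chromosome 16, from 30064164 to 30070457 on the plus strand), the form of muscle and most other tissues, 38.5, at percentile 25.9 of all genes. The 5 coding rows of ALDOA had mean normalized read counts between 8.34 and 14.2, all near the lowest value listed. The transcript that the annotation marks as the representative of ALDOA (MANE Select, the transcript agreed between Ensembl and RefSeq) was not among them. Lactate dehydrogenase had 10533 reads per kb for LDHB (chromosome 12, from 21635342 to 21757857 on the minus strand) and 1049 for LDHA (chromosome 11, from 18394560 to 18408425 on the plus strand), which gave LDHB 90.9% of the sum.

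**Figure D1:**
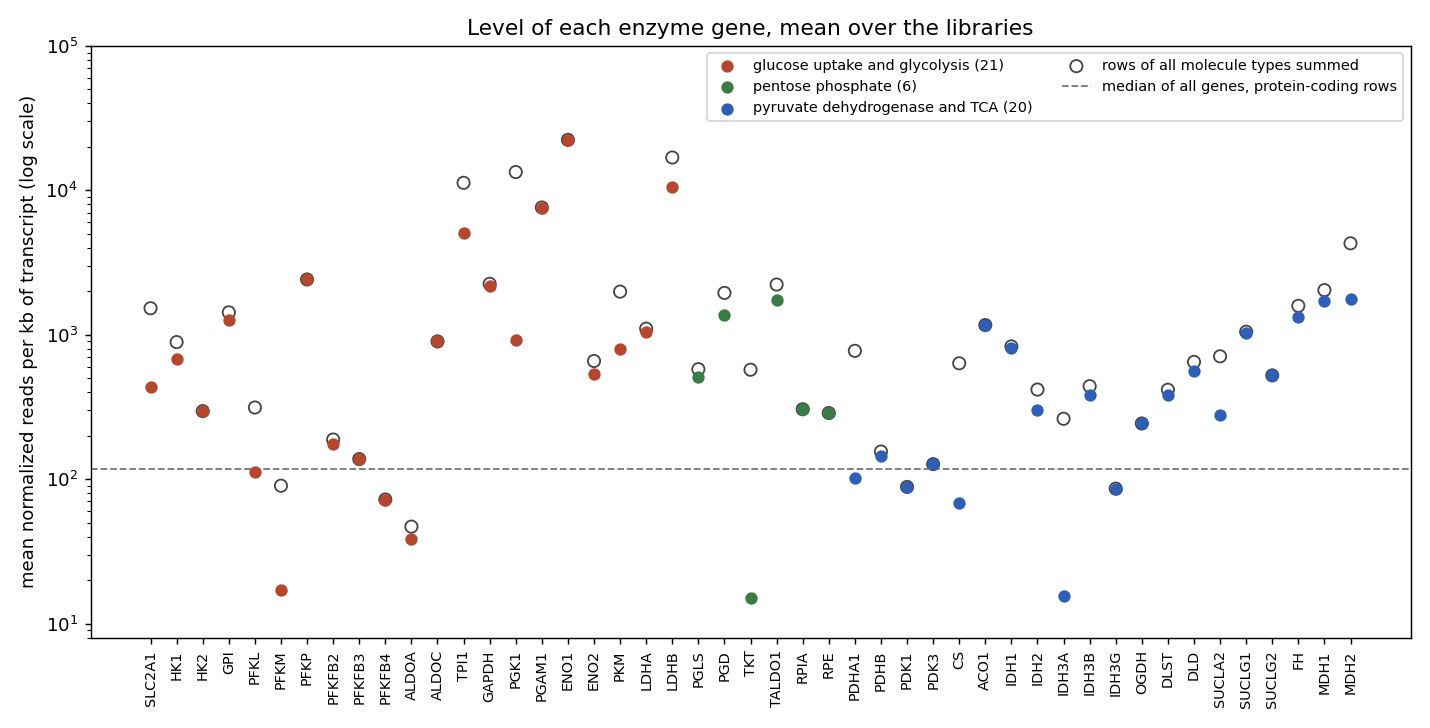
Level of the 47 enzyme genes as mean normalized reads per kb of transcript on a log axis; filled points sum the protein-coding rows, coloured by pathway, open circles sum rows of all molecule types, and the dashed line is the median of all genes, 117. ENO1 at 22199 is the highest point, and TKT at 15.1, IDH3A at 15.5 and PFKM at 17.1 are the lowest filled points; PGK1, TKT and IDH3A show wide gaps between the filled and the open point.

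LDHA has processed copies elsewhere in the genome that the annotation lists as transcripts of their own. LDHAP4 on chromosome 9 had a mean normalized read count of 1119, which is 59.2% of that of the LDHA coding rows, 1891. LDHAP3, LDHAP7 and LDHAP5 brought the 4 listed copies to 1376, or 72.7%. LDHAP4 was 95.8% identical to the representative LDHA transcript over 997 aligned bases, and 15.8% of its windows of 50 bases occurred unchanged there. The start of the coding sequence is shown for both, since it shows how few bases separate a read of one from a read of the other. It covers bases 2 to 121 of the LDHA coding sequence, at chr11:18396844-18396963 on the plus strand, and chr9:14922214-14922333 on the minus strand for the copy, both in hg38, and the 5 bases that differ are in capitals.
LDHA: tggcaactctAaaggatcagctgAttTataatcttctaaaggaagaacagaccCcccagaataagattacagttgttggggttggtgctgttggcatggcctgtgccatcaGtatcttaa
LDHAP4: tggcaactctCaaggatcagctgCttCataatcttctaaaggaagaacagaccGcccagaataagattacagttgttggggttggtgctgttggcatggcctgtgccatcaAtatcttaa

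No listed copy carried the symbol of LDHB. For GAPDH the 4 listed copies came to 4.13% of its coding count, for TPI1 the 1 listed came to 0.537% and for ENO1 to 0.0412%. LDHA thus had the highest share of the 4 members with listed copies.

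In the pentose phosphate pathway, PGLS opens the lactone of the first step, PGD yields NADPH and ribulose 5-phosphate, and RPIA and RPE convert that sugar. PGD had 1364 reads per kb and PGLS 512. RPIA had 305 and RPE 287, with a ratio of 1.06. TALDO1 and TKT exchange carbon units with glycolysis. TALDO1 was the highest of the pathway with 1747 reads per kb, and TKT the lowest of all 47 genes with 15.1. The 2 coding rows of TKT had mean normalized read counts of 30.9 and 13.6. A retained-intron row of TKT, 610 bases long, had 316 and 518 reads per kb, so coding rows made up 2.63% of the TKT level.

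In the pyruvate dehydrogenase complex, the genes of the E1 enzyme lay close to the median gene in their coding rows. PDHA1 had 102 reads per kb and PDHB, the other subunit of the E1 enzyme, 145. The other components of the complex, which are not in the set, were higher, DLAT at 425 and PDHX at 421, and DLD, the shared E3 subunit, was at 561. The kinases that switch the complex off lay near the median gene as well, PDK1 at 88.4 and PDK3 at 127. PDHA1 had a pair of short processed-transcript rows of 429 and 243 reads per kb, and over all molecule types PDHA1 stood above PDHB.

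Citrate synthase, CS, feeds acetyl-CoA into the cycle and had 67.8 reads per kb from coding rows. Its nonsense-mediated decay row ENST00000549143.5 had a mean normalized read count of 1572, against 204 for both coding rows together. ACO1, the cytosolic aconitase and iron regulatory protein, had 1166 reads per kb. Of the NADP-dependent isocitrate dehydrogenases, the cytosolic IDH1 had 811 and the mitochondrial IDH2 299.8, so IDH1 held 73.0% of the sum. The NAD-dependent enzyme of the cycle is built from 3 subunits, whose levels from coding rows were unequal: IDH3B had 385 reads per kb, IDH3G 86.0 and the catalytic IDH3A 15.5. IDH3A rested on 1 coding row of 63.9, beside a processed transcript of 618. From coding rows IDH3A held 3.18% of the sum of the subunits and IDH3G 17.7%. With rows of all molecule types their order turned, with 33.2% for IDH3A and 10.9% for IDH3G, and IDH3B stayed highest with 55.9%.

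The 2-oxoglutarate dehydrogenase complex was more even, with 243 reads per kb for OGDH, 384 for DLST and 561 for DLD. Succinyl-CoA synthetase pairs the alpha subunit SUCLG1 with an ADP-forming or a GDP-forming beta subunit. SUCLG1 had 1021 reads per kb, the GDP-forming SUCLG2 523 and the ADP-forming SUCLA2 278, an order that turned when rows of all molecule types were summed. FH, the fumarase, had 1325. Malate dehydrogenase was nearly even in its coding rows, with 1777 for the mitochondrial MDH2 and 1709.6 for the cytosolic MDH1, and MDH1 was the higher one when effective lengths or only the highest row were used. With rows of all molecule types MDH1 held 32.2% of their sum, against 49.0% from coding rows.

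**Figure D2:**
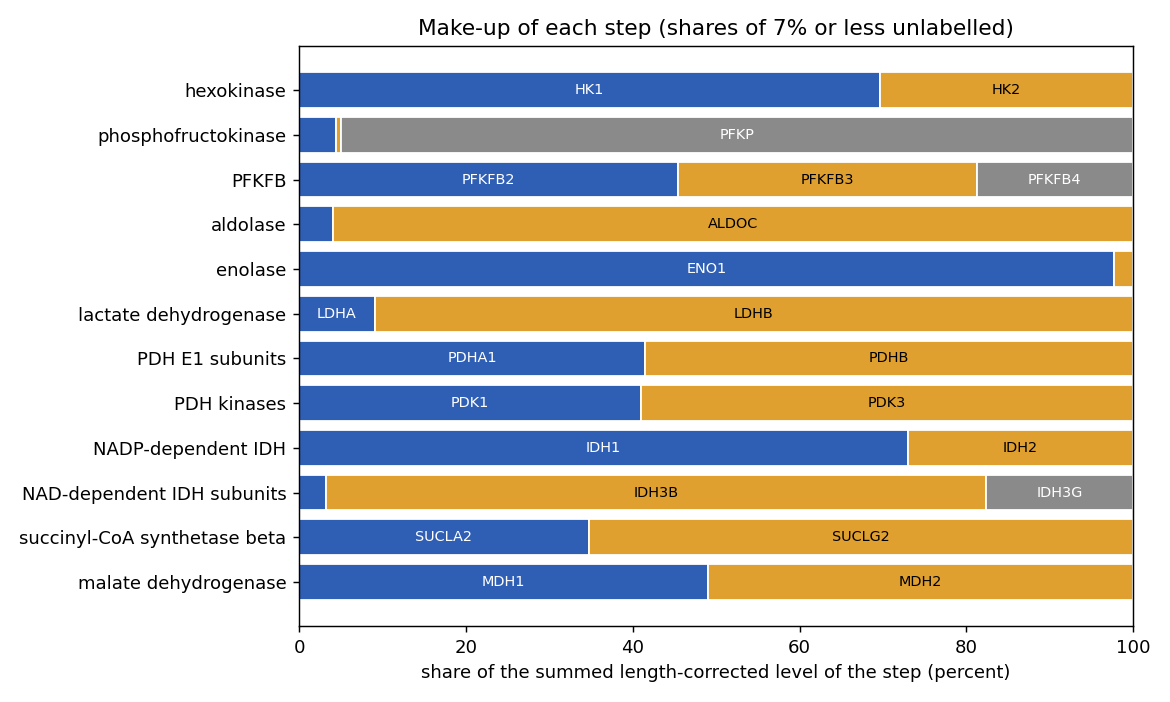
Share of each gene in the summed reads per kb of its step or complex, from protein-coding rows, in percent; each bar is 1 step and sums to 100. PFKP, ALDOC, ENO1 and LDHB each held over 90% of their step, while MDH1 and MDH2 held 49.0% and 51.0%.

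A gene's level rested on few rows. This is not particular to the set: the 47 genes had 125 protein-coding rows, and the 12120 genes of the table had 26348. The counts that follow were not made over all genes, so they describe the members only. In 11 of the 47 genes it was a single coding row, and in 23 the leading row held over 90% of the coding level. In 4 genes no row reached 50%, namely ALDOA, PDHA1, RPE and IDH3G. The representative transcript was listed for 44 genes, the exceptions being PFKM, ALDOA and SUCLA2, but was the leading row in only 28. Representatives were taken from the later annotation release, and one that is absent from the authors' release could not be listed. In 9 genes it held under 10% of the coding level. For GAPDH it held 0.470%, with a mean normalized read count of 19.0, while ENST00000619601.1 had 2279. For MDH1 the leading row was a transcript of 700 bases with 1125, and the representative had 59.9. The other molecule types added 78 rows in 34 of the genes, and in 12 genes they exceeded the coding rows per kb.

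The reads had been mapped by the authors to transcripts with the default settings of STAR, which leave out a read that fits more than 10 places. Where the transcripts themselves are the mapping target, as the methods describe it, each transcript is a separate place; the index itself was not examined here. The sequence that annotated transcripts share was therefore measured. The representative transcript of each gene was read in windows of 50 bases, a window every 10 bases, and each window was looked up in 194754 transcripts. In 31 of the 47 genes no window occurred in more than 10 transcripts. In PFKM 81.0% of the windows did, in ALDOA 61.2%, in PFKFB3 39.9%, in PKM 38.5%, in LDHA 35.0%, in CS 25.1%, in RPE 16.9% and in GAPDH 10.5%. PFKM and ALDOA, the only genes over 50%, were among the 4 lowest levels of the set; HK1 and PKM also passed 50% when all 252835 transcripts of the later release were searched. TKT and IDH3A were as low with 0% and 8.42%. Among the 11911 genes with a representative transcript, the median level was 34.7 reads per kb in the 177 genes over 50% and 121 in the others. The share of the low levels of PFKM and ALDOA that comes from reads left out was not tested. The same holds for the order of PFKP over PFKM, of ALDOC over ALDOA and of LDHB over LDHA. No window of PFKP, ALDOC or LDHB occurred in more than 10 transcripts.

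**Figure D3:**
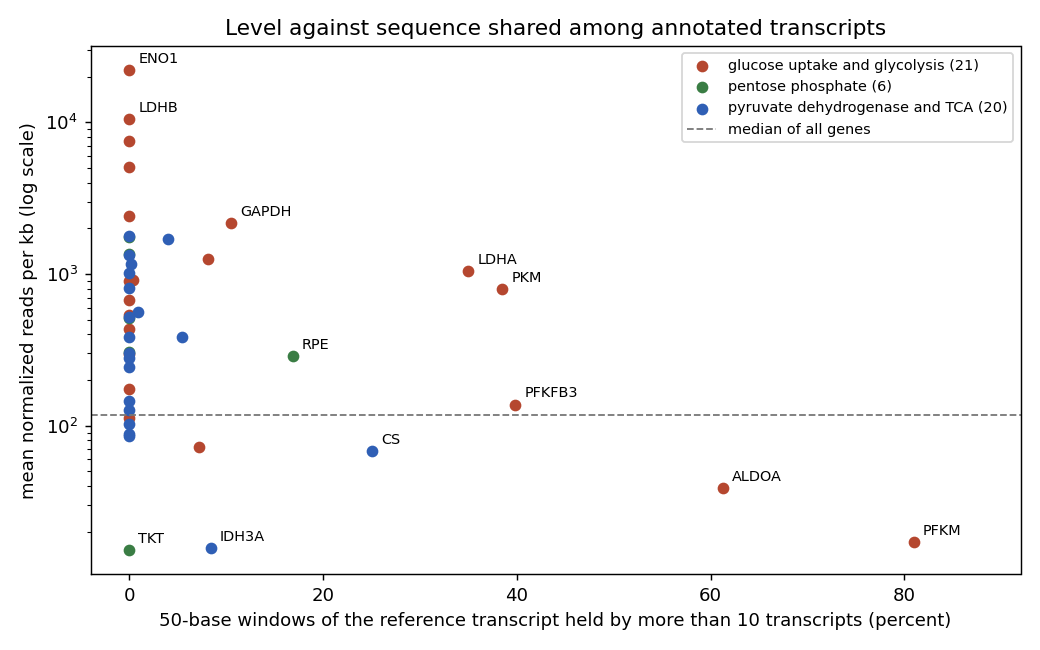
Reads per kb of each of the 47 genes on a log axis against the percentage of 50-base windows of its representative transcript that occur in more than 10 annotated transcripts; colours mark the pathway and the dashed line is the median of all genes, 117. PFKM at 81.0% and ALDOA at 61.2% lie at 17.1 and 38.5 reads per kb, while TKT is as low with 0% of its windows in more than 10 transcripts.

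Of 57 further genes of these pathways, 40 had a coding row and 25 of those were above the median gene. The median of the 40 was 157 reads per kb. Several isozymes of other tissues had no row: HK3 for hexokinase, PGAM2 for phosphoglycerate mutase, PKLR for pyruvate kinase, LDHC for lactate dehydrogenase, and TKTL1 and TKTL2 for transketolase. ENO3, the muscle enolase, was listed with 14.1 reads per kb. The lactate transporters SLC16A1 and SLC16A3 had 77.6 and 19.8, and their partner BSG 19.8, with 0%, 91.0% and 63.2% of windows in more than 10 transcripts. The alternative glucose carrier SLC2A3 had 147, below the 433 of SLC2A1. The mitochondrial pyruvate carrier was uneven, with 1007 for MPC2 and 144 for MPC1. Of succinate dehydrogenase, SDHB had 1290.4, SDHC 1038 and SDHD 662, but SDHA, the subunit that oxidises succinate, 12.6. These are levels from coding rows only, and SDHA stood on 1 such row. Windows in more than 10 transcripts made up 19.6% for SDHA, 20.9% for SDHD and 0% for SDHB and SDHC. Genes with no row had fewer reads than the lowest value listed or were left out for another reason, which the table does not tell.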

How the data were processed

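MDA-MB-231 cells were treated with DMSO or 10 µM KH-3 for 24 h, 2 libraries per group. The authors prepared libraries with an mRNA kit, mapped the reads with STAR to GENCODE release 24 transcripts, estimated reads per transcript with eXpress and normalized with DESeq2; the notes name hg38, and versions are not given in the sources used here. The mean normalized read count deposited by the authors is a signal averaged over libraries; which libraries enter is not stated, and depth is unknown. The table lists no value under 7.34. Its log2 fold change, p-value and q-value columns hold the authors' comparison and were not used.

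Rows were summed per gene after division by transcript length. All 47 members were described, and of other genes those that complete a step, some of which are not reported here. The members, lists and descriptions were chosen with earlier results of these data known. Gene coordinates, exons and transcript sequences came from GENCODE release 44 on hg38. By ID, 194 of the 203 rows of member genes were found there, and 87.8% of all listed transcripts. A transcript absent from release 44 could not be counted in the window search. Windows were searched in release 44 transcripts with IDs up to the highest ID in the table, 194754 of 252835, as a stand-in for release 24. The window search was added after the data were seen. Computations were tested on simulated data. Python 3.11.15, numpy 2.4.6, pandas 2.3.3, matplotlib 3.10.9 and Biopython 1.88 were used.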

Additional observations from a re-analysis of the deposited data

How the results depend on the processing

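No paired analysis was possible because the table holds 1 mean over the libraries, and for the same reason no library could be left out and no value has a replicate error. A value was taken as moved when it changed by more than 1.5 times. With rows of all molecule types, the median of the pyruvate dehydrogenase and TCA genes was 579 reads per kb and the number of genes whose leading row held over 90% was 12. PDHA1 then led PDHB, with 83.3% of their sum, and SUCLA2 led SUCLG2, with 57.5%, and MDH1 held 32.2% of the malate dehydrogenase sum. IDH3A then stood above IDH3G, with 33.2% against 10.9% of the sum of the NAD-dependent subunits. With all transcripts of release 44 searched, 4 genes had over 50% of windows in more than 10 transcripts, HK1 and PKM being added. The other pathway medians and the number of genes above the median gene changed by less than 1.5 times under every alternative run. That number ran from 34 of 44 genes (rows of 50 or more) to 42 of 47 (all molecule types). Rows of 50 or more left no row for ALDOA, PFKM and TKT. Of the 27 isozyme shares, 9 moved with all molecule types, 3 with rows of 50 or more, 2 with the highest row alone and 0 with effective lengths. The leading gene changed in PFKFB and malate dehydrogenase with the highest row alone, and in malate dehydrogenase with effective lengths. Unknown depth and reads divided among similar transcripts limit all levels.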
